A study of Mus musculus with 9 samples.

Results

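The miR-30 family comprised 9 of the 358 mature miRNAs measured in mouse epididymosomes. Members were taken by name alone, as every miRNA called miR-30 followed by a letter from a to f, whichever arm of its hairpin it came from. The 9 were the 5p arms miR-30a-5p, miR-30b-5p, miR-30c-5p, miR-30d-5p and miR-30e-5p and the 3p arms miR-30a-3p, miR-30c-2-3p, miR-30d-3p and miR-30e-3p. Epididymosomes are small membrane vesicles that the epididymal epithelium releases into the lumen, where they meet maturing spermatozoa. They were isolated from luminal fluid of the caput, corpus and cauda, the proximal, middle and distal segments of the epididymis, and their small RNAs were sequenced in 3 libraries per segment. All donors were untreated male inbred Swiss mice of 8 weeks, and each library held RNA pooled from several animals, so the spread between libraries was a spread between pools. In pooled vesicles, fewer copies of a miRNA per vesicle and fewer vesicles that carry it cannot be told apart. The comparisons asked how vesicle miRNA content differed between segments. Each pair of comparisons shared the 3 libraries of a segment.

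A miRNA is cut from a hairpin precursor whose 5p and 3p strands can each enter an Argonaute protein, and usually 1 strand, the guide, accumulates far above the other. The guide finds mRNAs mainly through its seed, the bases near its 5′ end that pair with the target. The miR-30 family is expressed in many tissues and is known from epithelia, where it has been studied as a brake on the change from epithelial to mesenchymal state. Its 5p arms are the usual guides and share a seed.

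RefSeq (build GRCm38.p6) gave a mature sequence for 6 of the 9 members. They are shown with the seed, bases 2 to 8 from the 5′ end, in capitals, because members that share a seed differ only outside it. The 5p arms were:
miR-30a-5p: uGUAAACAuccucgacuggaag
miR-30c-5p: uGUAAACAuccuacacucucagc
miR-30e-5p: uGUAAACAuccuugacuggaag
The 3p arms were:
miR-30a-3p: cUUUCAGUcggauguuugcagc
miR-30e-3p: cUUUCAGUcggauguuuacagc
miR-30c-2-3p: cUGGGAGAaggcuguuuacucu
The members without an entry were miR-30b-5p, miR-30d-5p and miR-30d-3p.

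The 3 printed 5p arms had the seed GUAAACA, which 4 of the 1679 mouse mature sequences in the set carried (0.238%). The 4th was miR-384-5p, and the other 3 were the printed members. The set held no entry for miR-30b-5p, miR-30d-5p or miR-30d-3p, so its seed counts could not include them. Of the 3p arms, miR-30a-3p and miR-30e-3p shared UUUCAGU, which no other sequence in the set carried, while miR-30c-2-3p had UGGGAGA. Counting from 1 at the 5′ end, miR-30a-5p and miR-30e-5p differed by the single substitution C13U, and miR-30a-3p and miR-30e-3p by G18A. miR-30a-5p and miR-30c-5p were identical over their first 12 bases. How reads with mismatches were divided among sequences this close was not given in the sources used here, so the split between miR-30a and miR-30e carries an uncertainty beyond the spread between libraries.

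The arms of a hairpin are shown in capitals in the precursor of miR-30a, because its arm ratio gave the call described further on:
Mir30a: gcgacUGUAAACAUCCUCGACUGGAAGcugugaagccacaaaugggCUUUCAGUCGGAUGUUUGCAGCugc
Mir30a lay at chr1:23272269-23272339 on the plus strand (GRCm38), where no other annotated gene overlapped it. Mir30c-2 followed on the same strand 19.4 kb further on, at chr1:23291701-23291784, in an exon of the non-coding Gm27028. Mir30c-1 (chr4:120769534-120769622) and Mir30e (chr4:120772606-120772697) lay 2.98 kb apart on the minus strand in introns of Nfyc, which encodes a subunit of the transcription factor NF-Y. Mir30b (chr15:68337415-68337510) and Mir30d (chr15:68341208-68341289) lay 3.7 kb apart on the minus strand, within exons of the non-coding Gm26621 and of Gm37296 and Gm20732. miR-30c-5p can come from both Mir30c-1 and Mir30c-2, so its level is a sum over a pair of loci.

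Levels are in CPM, the reads that a miRNA took out of every 1000000 miRNA reads in a library. The libraries held from 1548581 to 11306605 reads, with a median of 8453380 in caput, 2553385 in corpus and 2184582 in cauda. Every caput library held at least 8274421 reads and every corpus or cauda library at most 6190324. Depth and segment therefore cannot be told apart in the comparisons with caput. A floor of 3 reads corresponded to 0.265 to 1.94 CPM. All 9 members stood at 10 CPM or more in 9 of 9 libraries, and the lowest count was 23 reads, for miR-30c-2-3p in corpus library 3. Counts of sequenced copies are not counts of molecules, and this floor covers counting error only. The caput libraries were dominated by miR-10a-5p and miR-10b-5p, which together took 50.5% to 71.3% of their reads against 33.2% to 34.5% in cauda, whereas miR-143-3p took 4.98% to 8.81% in caput and 28.7% to 35.2% in cauda. Because CPM is a share of such totals, the main changes are also given with TMM factors, a scaling that trims the most extreme miRNAs before it compares libraries.

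Every 5p arm stood above every 3p arm, and the order of the members was the same in every library. Averaged over the 9 libraries, miR-30a-5p ranked 6th of the 358 miRNAs, miR-30d-5p 16th, miR-30e-5p 21st, miR-30c-5p 33rd and miR-30b-5p 47th. The 3p arms followed with miR-30a-3p at rank 94, miR-30e-3p at 131, miR-30d-3p at 201 and miR-30c-2-3p at 256. Each member exceeded the next in this order in 9 of 9 libraries. The narrowest step was from miR-30d-3p to miR-30c-2-3p, whose ratio was as low as 1.26 in a library, and the next narrowest was from miR-30e-5p to miR-30c-5p, as low as 1.32. From miR-30b-5p, the lowest 5p arm, to miR-30a-3p, the highest 3p arm, the ratio ran from 1.61 to 8.18.

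**Figure D1:**
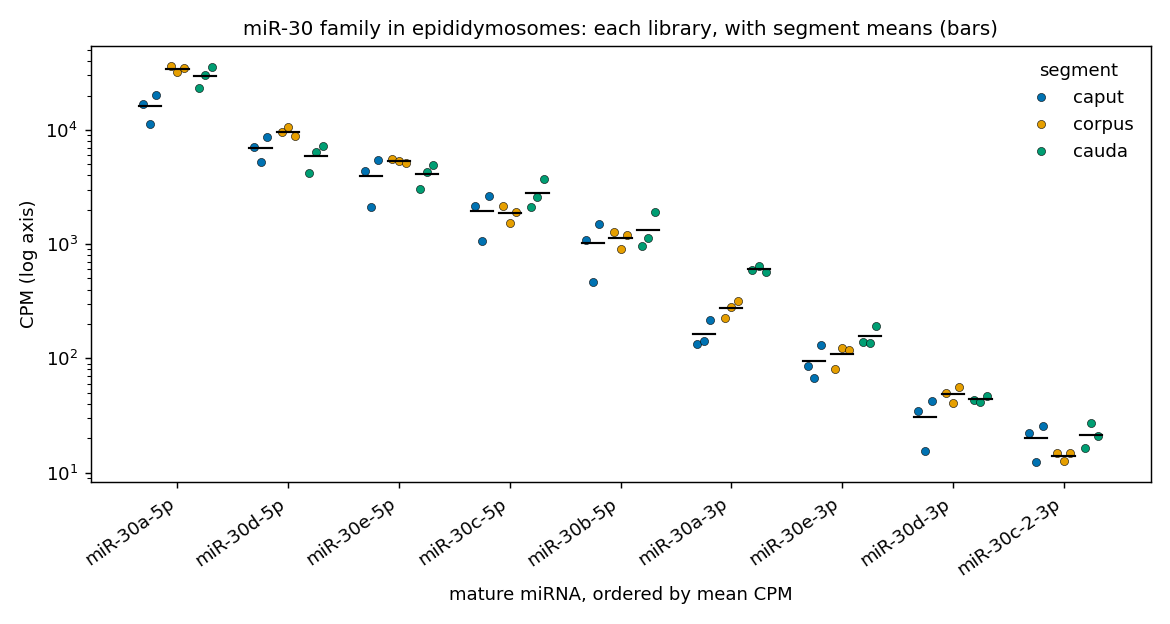
Level of each miR-30 member in every library, in CPM on a log axis, with the libraries of a segment as points of 1 colour and segment means as bars. The 5p arms lie above the 3p arms throughout, and miR-30a-5p is highest, from 11360 CPM in caput to 36430 CPM in corpus.

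miR-30a-5p, the most abundant guide of the family, was higher in corpus than in caput. Its levels in caput libraries 1, 2 and 3 were 16682, 11360 and 20163 CPM. Those in corpus were 36430, 32326 and 34581 CPM, and those in cauda 23267, 30123 and 35282 CPM. Every corpus and cauda library was above every caput library, while corpus and cauda overlapped. The segment means were 16069 ± 4433, 34445 ± 2055 and 29557 ± 6028 CPM (SD, n = 3 each). From caput to corpus miR-30a-5p rose by 1.14 on the log2 scale (SE 0.26, a fold of 2.20, adjusted p = 0.0046 by limma with Benjamini-Hochberg adjustment over 321 miRNAs). A change was called at an adjusted p under 0.05 with at least a 2-fold difference, and fold changes are on the log2(CPM + 1) scale, which understates changes of low miRNAs. From caput to cauda the difference was 0.90 (SE 0.26, limma adjusted p = 0.0089), a fold of 1.86 and so under 2-fold. With TMM scaling these differences were 0.56 (limma adjusted p = 0.036) and 0.22 (limma adjusted p = 0.32), neither of them called. Leaving out caput library 2, the lowest, gave 0.91 for caput to corpus, also under 2-fold.

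miR-30d-5p, next to miR-30a-5p by level, had its highest mean in corpus. Its levels were 7132, 5211 and 8600 CPM in caput libraries 1 to 3, 9602, 10606 and 8809 CPM in corpus, and 4225, 6429 and 7209 CPM in cauda. Every corpus library was above every caput and every cauda library, and caput and cauda overlapped. No comparison was called, with differences of 0.50 (SE 0.30, limma adjusted p = 0.23) from caput to corpus and -0.73 (SE 0.30, limma adjusted p = 0.091) from corpus to cauda. From caput to cauda the difference was -0.24 (SE 0.30, limma adjusted p = 0.53). With TMM scaling the differences to cauda were -0.91 from caput (limma adjusted p = 0.0042) and -0.83 from corpus (limma adjusted p = 0.014), both past the p threshold and short of 2-fold, and the difference from caput to corpus turned to -0.081.

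miR-30e-5p, which differs from miR-30a-5p by 1 base, was called in no comparison. It stood at 4377, 2105 and 5459 CPM in caput, at 5507, 5320 and 5120.2 CPM in corpus, and at 3049, 4273 and 4929 CPM in cauda. The corpus libraries were close to each other and all above the cauda libraries, whereas caput ranged from below to within the other segments. Its differences were 0.53 (SE 0.35) from caput to corpus, -0.41 (SE 0.35) from corpus to cauda and 0.12 (SE 0.35) from caput to cauda, with limma adjusted p = 0.29, 0.46 and 0.80. With TMM scaling the difference from caput to cauda was -0.56 (limma adjusted p = 0.034) and that from caput to corpus was -0.052.

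miR-30c-5p and miR-30b-5p, the less abundant guides, gave no call. miR-30c-5p stood at 2143, 1062 and 2658 CPM in caput, 2165, 1515 and 1926 CPM in corpus, and 2115, 2598 and 3737 CPM in cauda. miR-30b-5p stood at 1094, 470 and 1506 CPM in caput, 1277, 901 and 1204 CPM in corpus, and 955, 1131 and 1896 CPM in cauda. For both, caput library 2 was lowest, cauda library 3 was highest, and all 3 segments overlapped. Differences from caput to cauda were 0.59 (SE 0.38, limma adjusted p = 0.21) for miR-30c-5p and 0.47 (SE 0.43, limma adjusted p = 0.38) for miR-30b-5p, and with TMM scaling they turned to -0.089 and -0.21. Their ratio within a library was steadier than either level, at 1.76 to 2.26 in caput, 1.60 to 1.70 in corpus and 1.97 to 2.30 in cauda.

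Among the 3p arms, miR-30a-3p increased towards the cauda. It stood at 134, 141 and 215 CPM in caput libraries 1 to 3, at 225, 284 and 317 CPM in corpus, and at 595, 639 and 570 CPM in cauda. The 3 segments did not overlap at any point, and the cauda libraries differed least among themselves, with a coefficient of variation of 5.79% against 27.4% in caput. The segment means were 163 ± 44.8, 275 ± 46.5 and 601 ± 34.8 CPM (SD, n = 3 each). From caput to cauda miR-30a-3p rose by 1.90 on the log2 scale (SE 0.37, a fold of 3.74, limma adjusted p = 0.00073 over 349 miRNAs). The rise held with TMM scaling, at 1.23 (a fold of 2.35, limma adjusted p = 0.0024), and whichever library was left out, at 1.78 to 2.12. From corpus to cauda it rose by 1.14 (SE 0.37, a fold of 2.20, limma adjusted p = 0.041 over 342 miRNAs), and with TMM scaling by 1.04 (limma adjusted p = 0.013). With median-of-ratios scaling the difference was 0.93 (limma adjusted p = 0.02), under 2-fold and so not called. The call was also lost when any 1 of 7 of the 9 libraries was left out (caput library 1 or any corpus or cauda library), with differences of 1.00 to 1.25 and limma adjusted p up to 0.17. It was also lost with limma-voom on read counts (1.16, adjusted p = 0.052). From caput to corpus the difference was 0.77 (SE 0.37, limma adjusted p = 0.14).

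The other 3p arms gave no call. miR-30e-3p stood at 86.5, 67.7 and 132 CPM in caput, 81.3, 124 and 119 CPM in corpus, and 140, 136 and 193 CPM in cauda. The cauda libraries were above all others, narrowly so for caput library 3. Its difference from caput to cauda was 0.74 (SE 0.41, limma adjusted p = 0.14), and 0.074 with TMM scaling. miR-30d-3p stood at 34.5, 15.6 and 42.1 CPM in caput, 49.8, 40.3 and 56.2 CPM in corpus, and 43.5, 41.2 and 46.8 CPM in cauda, with caput library 2 apart from the rest. miR-30c-2-3p stood at 22.2, 12.3 and 25.3 CPM in caput, 14.9, 12.5 and 14.9 CPM in corpus, and 16.5, 27.0 and 21.0 CPM in cauda. Its mean was lowest in corpus and highest in cauda, an order shared by miR-30c-5p, although caput overlapped both other segments. With TMM scaling its difference from caput to corpus was -0.96 (limma adjusted p = 0.027, short of 2-fold), against -0.42 (SE 0.43, limma adjusted p = 0.51) on CPM.

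In each of the 3 comparisons 1 member was called. From caput to corpus 1 of 9 was called, miR-30a-5p, where 22.4% of the 321 miRNAs tested were called in either direction and 19.0% as higher. From corpus to cauda 1 of 9 was called, miR-30a-3p, beside 19.0% of 342 in either direction and 14.0% as higher. Between caput and cauda 1 of 9 was called, again miR-30a-3p, beside 49.0% of 349 in either direction and 38.7% as higher. The median difference of the 9 members was 0.50, 0.19 and 0.59 in the 3 comparisons, and that of all miRNAs tested was 0.47, 0.18 and 0.81. TMM scaling moved the medians of the members to -0.081, 0.088 and -0.089 and those of all miRNAs to -0.087, 0.079 and 0.13. It also moved the split of calls over all miRNAs, from 19.0% higher and 3.43% lower to 13.1% and 15.3% for caput to corpus, and from 38.7% and 10.3% to 24.9% and 20.3% for caput to cauda. With TMM scaling 0, 1 and 1 members were called, beside 28.3%, 26.3% and 45.3% of all miRNAs in either direction.

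**Figure D2:**
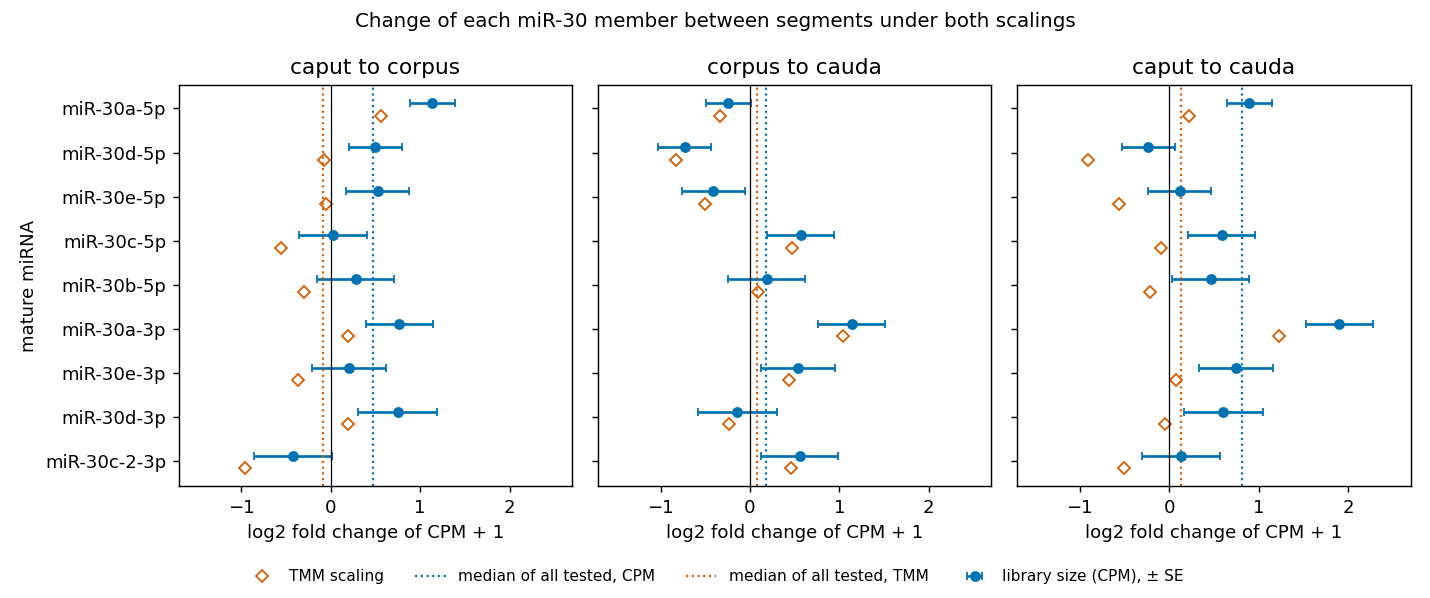
Log2 difference between segments for each miR-30 member, as filled points with SE bars on CPM and open diamonds with TMM scaling, beside the median of all miRNAs tested on each scale as dotted lines. The TMM values lie lower than the CPM values in every comparison, by more in both comparisons with caput. miR-30a-3p from caput to cauda has the highest value on both scales, 1.90 and 1.23.

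The libraries of a pair of segments did not overlap for 3 of 9 members from caput to corpus, all higher in corpus (miR-30a-5p, miR-30d-5p and miR-30a-3p), where 29.3% of miRNAs tested were so. From corpus to cauda 3 of 9 were higher in cauda without overlap (miR-30a-3p, miR-30c-2-3p and miR-30e-3p) beside 30.1%, and 2 were lower (miR-30d-5p and miR-30e-5p) beside 16.1%. Between caput and cauda 3 of 9 were higher (miR-30a-5p, miR-30a-3p and miR-30e-3p) beside 42.4%. Caput library 2 held the lowest caput value of 8 of 9 members and the lowest value of all libraries of 7 of 9. That library also had the highest share of miR-10a-5p and miR-10b-5p, 71.3%, and the part of this share in the low values was not tested.

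The 5p arms together took 3.14%, 2.02% and 3.84% of the reads in caput libraries 1 to 3, 5.50%, 5.07% and 5.16% in corpus, and 3.36%, 4.46% and 5.31% in cauda. The means were 3.00% ± 0.92, 5.24% ± 0.23 and 4.37% ± 0.97 (SD, n = 3 each). Corpus lay above every caput library, and cauda spanned the gap between them. Of the reads left after removing the 3 most abundant miRNAs, miR-10b-5p, miR-10a-5p and miR-143-3p, the 5p arms took 9.29% ± 0.71 in caput, 13.7% ± 0.94 in corpus and 12.5% ± 1.90 in cauda. On this base caput libraries 1, 2 and 3 were closer together, at 9.91%, 8.52% and 9.42%, and all were below the cauda libraries, whose lowest was 10.6%. With totals scaled by TMM the share was 3.90% ± 0.52 in caput, 4.70% ± 0.34 in corpus and 3.62% ± 0.51 in cauda, so that corpus stayed above every caput library but the order of the caput and cauda means turned, with caput and cauda overlapping. The 3p arms together took 0.0310% ± 0.0093 of reads in caput, 0.0446% ± 0.0069 in corpus and 0.0823% ± 0.0025 in cauda. These sums were not tested, since they are scores over the members.

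**Figure D3:**
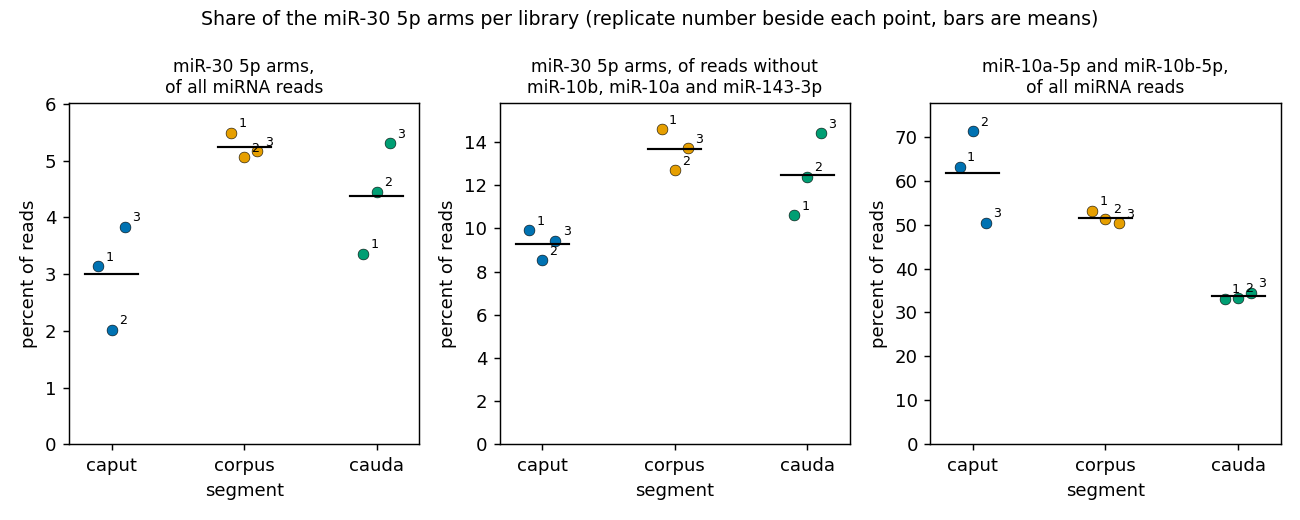
Percent of reads on the miR-30 5p arms in each library, of all miRNA reads and of the reads without miR-10b-5p, miR-10a-5p and miR-143-3p, beside the percent on miR-10a-5p and miR-10b-5p; points are libraries and bars are means. The caput library with the lowest miR-30 share, 2.02%, has the highest miR-10 share, 71.3%.

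Within the 5p arms, miR-30a-5p took a larger part and miR-30d-5p a smaller part outside the caput. miR-30a-5p made up 53.9% ± 1.99 of the 5p reads in caput, 65.7% ± 1.66 in corpus and 67.8% ± 1.37 in cauda, and every caput library lay below every other. miR-30d-5p made up 23.6% ± 1.88, 18.5% ± 2.13 and 13.5% ± 0.93, with no overlap between any segments. miR-30e-5p made up 12.9% ± 2.12, 10.1% ± 0.31 and 9.32% ± 0.26. miR-30c-5p made up 6.33% ± 0.94, 3.55% ± 0.50 and 6.39% ± 0.61, and was lowest in corpus, as was miR-30b-5p at 3.24% ± 0.83, 2.14% ± 0.32 and 2.98% ± 0.53 (SD, n = 3 each). These shares do not depend on how libraries are scaled.

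**Figure D4:**
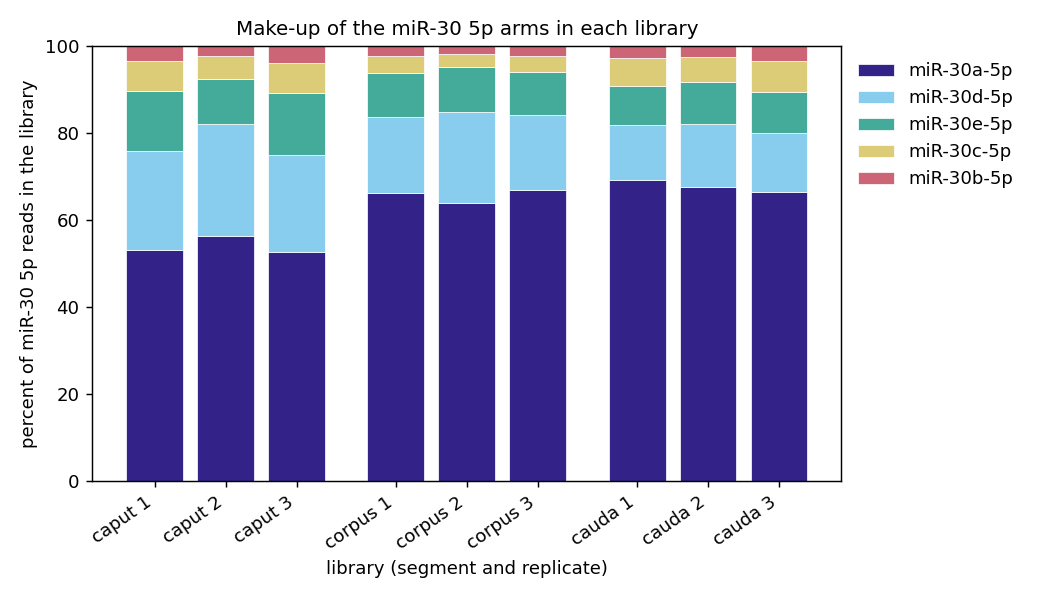
Share of each 5p arm in the miR-30 5p reads of each library, as stacked bars in percent. miR-30a-5p takes 53.9% on average in caput against 65.7% in corpus and 67.8% in cauda, and miR-30d-5p shrinks from 23.6% to 13.5%.

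Whether a member changed differently from miR-30a-5p was tested within libraries, on the log2 ratio of the member to miR-30a-5p, with limma over all other miRNAs and a call at an adjusted p under 0.05. From caput to corpus 4 of 8 members were called, all falling relative to miR-30a-5p, where 41.6% of miRNAs were called in either direction and 36.9% as falling. They were miR-30c-2-3p (-1.56, SE 0.27, limma adjusted p = 0.0016), miR-30c-5p (-1.12, SE 0.28, limma adjusted p = 0.0083), miR-30e-3p (-0.93, SE 0.30, limma adjusted p = 0.029) and miR-30b-5p (-0.86, SE 0.32, limma adjusted p = 0.048). Both products named miR-30c thus fell against miR-30a-5p, and these 2 calls held whichever library was left out. The call of miR-30b-5p was lost without 7 of the 9 libraries and that of miR-30e-3p without 4. Over all 9 such fits the difference of miR-30b-5p ranged from -1.11 to -0.69.

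From corpus to cauda 3 of 8 members were called, all rising relative to miR-30a-5p, beside 33.4% of miRNAs in either direction and 27.9% as rising. miR-30a-3p rose by 1.38 (SE 0.32, limma adjusted p = 0.0068), a call that held without any 1 library. This ratio is that of the arms of miR-30a, which is tested again below over hairpins alone. There the call was lost without some libraries. miR-30c-5p rose by 0.81 (SE 0.28) and miR-30c-2-3p by 0.79 (SE 0.27), each with limma adjusted p = 0.045. Their calls were lost without 8 and without 7 of the 9 libraries. Between caput and cauda 4 of 8 were called, beside 48.3% in either direction, 20.1% as rising and 28.2% as falling. miR-30a-3p rose against miR-30a-5p by 1.01 (SE 0.32, limma adjusted p = 0.021). miR-30d-5p fell by 1.13 (SE 0.27, limma adjusted p = 0.0045), and this call held without any 1 library, at -1.18 to -1.07. miR-30e-5p fell by 0.78 (SE 0.27, limma adjusted p = 0.035) and miR-30c-2-3p by 0.76 (SE 0.27, limma adjusted p = 0.038), both lost without 6 of the 9 libraries, while that of miR-30a-3p was lost without 3. The number of members called ran from 1 to 4 in this comparison as libraries were left out.

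The ratio of miR-30a-5p to miR-30d-5p shows this difference in each library. It averaged 2.29 in caput (2.18 to 2.34), 3.59 in corpus (3.05 to 3.93) and 5.03 in cauda (4.69 to 5.51), so the 3 segments did not overlap. miR-30d-5p and miR-30b-5p, whose genes lie side by side on chromosome 15, did not keep a constant ratio. It was 5.71 to 11.1 in caput, 7.31 to 11.8 in corpus and 3.80 to 5.68 in cauda, which placed every cauda library below all others, narrowly so for caput. For miR-30a-5p and miR-30c-2-3p, from neighbouring genes on chromosome 1, the ratio was 751 to 922 in caput, 2328 to 2579 in corpus and 1115 to 1678 in cauda, again without overlap.

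The 5p arm of the miR-30a hairpin exceeded its 3p arm by less in cauda than in corpus. The ratio of 5p to 3p reads was 125, 80.3 and 93.8 in caput libraries 1 to 3, 162, 114 and 109 in corpus, and 39.1, 47.2 and 61.9 in cauda. Every cauda library was below every caput and corpus library, and the ratio is free of library scaling. The test was limma on the log2 ratio (0.5 CPM added to each arm) over the 64 hairpin names whose 2 arms each averaged 10 CPM or more. For miR-30a this is the same within-library ratio as that of miR-30a-3p to miR-30a-5p above, with its sign turned. The fits differ in the CPM added and in the miRNAs or hairpins that the spread and the adjustment draw on. Their calls are therefore not separate results. From corpus to cauda the ratio of miR-30a fell by 1.38 on the log2 scale (SE 0.34, 2.60-fold lower, limma adjusted p = 0.023), the 3rd most negative of the 64, where 6.25% were called in either direction and 3.12% as lower. The call was lost when corpus library 1 or 2 or cauda library 1 or 2 was left out, with differences of -1.55 to -1.20 over all 9 such fits and limma adjusted p up to 0.12. From caput to cauda the difference was -1.01 (SE 0.34, limma adjusted p = 0.058), not called over the 64 hairpins though called above over miRNAs. In that comparison 15.6% of hairpins were called. From caput to corpus it was 0.37 (SE 0.34, limma adjusted p = 0.58), and 1.56% were called.

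The other hairpins gave no call. The ratio of miR-30e was 50.6, 31.1 and 41.3 in caput, 67.8, 43.0 and 42.9 in corpus, and 21.8, 31.3 and 25.5 in cauda, with every cauda library below every corpus library. Its difference from corpus to cauda was -0.95 (SE 0.34, limma adjusted p = 0.14). The ratio of miR-30d was 207, 334 and 204 in caput, 193, 263 and 157 in corpus, and 97.2, 156 and 154 in cauda, with differences of -0.59 (SE 0.36, limma adjusted p = 0.35) from corpus to cauda and -0.85 (SE 0.36, limma adjusted p = 0.12) from caput to cauda. Over all 64 hairpins the median difference was 0.10 from corpus to cauda and 0.12 from caput to cauda. The ratio of miR-30c-5p to miR-30c-2-3p, which is not that of 1 hairpin, was 96.5, 86.1 and 105 in caput, 146, 121 and 130 in corpus, and 128, 96.2 and 178 in cauda.

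**Figure D5:**
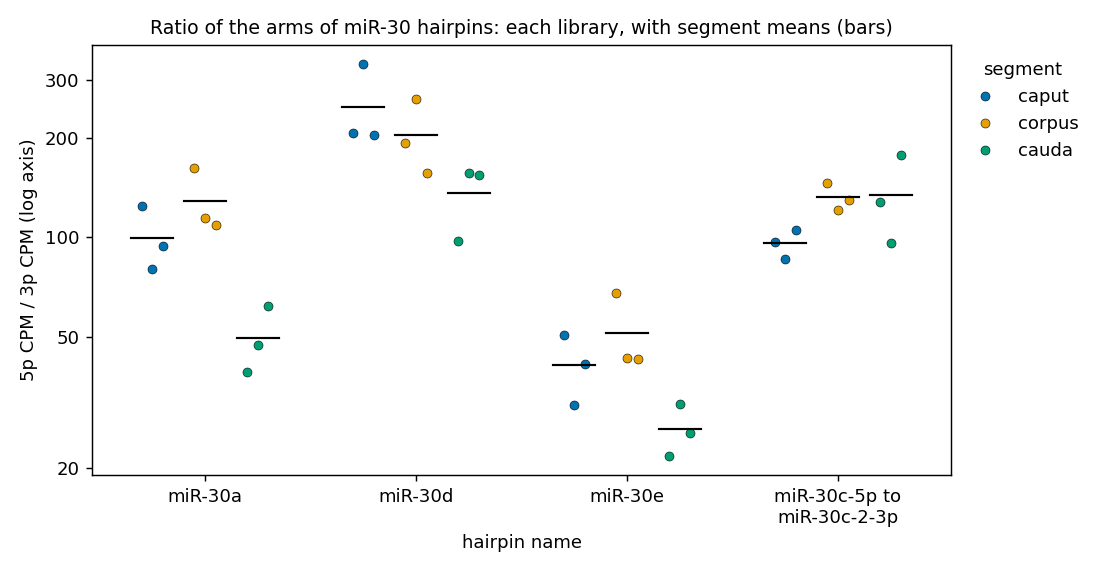
Ratio of 5p to 3p CPM for the miR-30 hairpin names in each library, on a log axis, with segment means as bars. For miR-30a the cauda libraries lie between 39.1 and 61.9 and the corpus libraries between 109 and 162.

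The miRNAs whose level followed that of miR-30a-5p most closely over the 9 libraries were not members of the family. Among 308 miRNAs that averaged 10 CPM or more, the 5 with the highest Pearson r of log2(CPM + 1) were miR-199a-5p (0.96), miR-511-3p (0.96), miR-200a-3p (0.95), miR-141-3p (0.94) and miR-743b-3p (0.93). Of these, miR-199a-5p is known from mesenchymal cells, miR-511-3p from macrophages, and miR-200a-3p and miR-141-3p from epithelia. No cell type is given here for miR-743b-3p. The level of miR-511-3p was low in caput, at 1.93 to 9.23 CPM. miR-199a-5p stood at 203 to 503 CPM in caput, 618 to 666 CPM in corpus and 393 to 646 CPM in cauda. miR-141-3p stood at 15427 to 19488 CPM in caput, 58422 to 72410 CPM in corpus and 32901 to 49859 CPM in cauda. The nearest member was miR-30d-3p (r = 0.87, 26th), followed by miR-30e-5p (0.74, 85th) and miR-30b-5p (0.67, 121st), and miR-30c-2-3p was farthest (0.049, 243rd). Within the family, miR-30b-5p and miR-30c-5p had the highest r, 0.93. These coefficients describe 9 libraries that share totals and segments, and they carry no test.

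Other conserved miRNA families with several genes gave 1 call between them from caput to cauda, where 49.0% of all miRNAs tested were called. Of the 8 let-7 5p arms, 1 was called from caput to cauda, as were 0 of the 2 miR-26 5p arms and 0 of the 3 miR-29 3p arms. Their median differences were 0.28, 0.64 and 0.84, against 0.47 for the 5 miR-30 5p arms. With TMM scaling they were -0.39, -0.033, 0.17 and -0.21.

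Markers of other cell types moved with the segments. Over all 349 miRNAs tested, 38.7% were called higher from caput to cauda. The 4 miRNAs typical of smooth muscle, led by miR-143-3p, summed to 50115 to 88995 CPM in caput and 291676 to 354786 CPM in cauda, and 4 of 4 were called higher from caput to cauda. Striated muscle miRNAs (5 of 6 listed were measured) summed to 55.5 to 197 CPM in caput and 1412 to 4166 CPM in cauda, with 5 of 5 called higher. Red blood cell miRNAs (4 of 5 measured) summed to 223 to 848 CPM in caput and 3019 to 4348 CPM in cauda, with 4 of 4 called higher. The authors perfused the vasculature and did not detect haemoglobin protein in the epididymosome preparations by immunoblot. Leukocyte miRNAs (5 of 5 measured) ran from 231 to 530 CPM in caput and from 392 to 1601 CPM in cauda, with 3 of 5 called higher. With TMM scaling the median differences from caput to cauda were 1.43 for smooth muscle and 3.72 for striated muscle. They were 1.96 for red blood cells, 1.16 for leukocytes and -0.35 for epithelium. Epithelial miRNAs (6 of 6 measured) were highest in corpus, at 73871 to 85321 CPM, against 21864 to 33624 CPM in caput and 46003 to 62093 CPM in cauda, with miR-141-3p making up most of each sum. Of these 6, 2 were called higher from caput to corpus, 0 in either direction from corpus to cauda and 1 higher from caput to cauda, and their median difference from caput to corpus was 0.58, or 0.0032 with TMM scaling. None of the measured markers was under the floor in every library. miR-30a-3p rose and the miR-30a arm ratio fell in the same cauda libraries, and the part of these cell types and of sequencing depth in those results was not tested.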

How the data were processed

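Small RNA libraries (Illumina TruSeq) were sequenced from 9 pools of epididymosomes, 3 per segment. Per the methods and the submitters' processing notes, reads were handled with CASAVA 1.8.2 and Bowtie 1.1.1 and quantified with miRDeep2. The genome build and miRBase release were not given in the sources used here. The authors divided miRNA counts by library size and deposited CPM, and their methods name 10 CPM as the detection threshold. Every deposited CPM value was a whole multiple of 1 read (tolerance 0.1 read), which gave each library's total. No column lacked a sample (0 left out).

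log2(CPM + 1) was fitted by segment over all 9 libraries with limma 3.58 (lmFit, eBayes with trend) in R 4.3, with Benjamini-Hochberg adjustment over miRNAs averaging 10 CPM or more in either segment. Arm ratios and ratios to miR-30a-5p were fitted likewise without trend. Scripts used Python 3.11 and were tested on simulated data. Alternatives were TMM and median-of-ratios scaling, limma-voom, pseudocounts of 0.1 and 10 CPM (2 CPM for arm ratios), a filter at 50 CPM or none, only the 6 libraries compared, a replicate block, no fold rule, and leaving out each library. TMM without the fold rule and leaving out libraries for the 5p share were added after seeing the data. Named miRNAs were all members, the 5 most correlated with miR-30a-5p, and comparison families and cell type markers by list. Members and lists were chosen with earlier results of these data known. Gene positions came from GENCODE M21 (GRCm38) and sequences from RefSeq.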

Additional observations from a re-analysis of the deposited data

How the results depend on the processing

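Members called from caput to corpus numbered 0 with TMM, 0 with median-of-ratios scaling and 2 with TMM and no fold rule (1 on CPM). From corpus to cauda they numbered 0 with median-of-ratios scaling, 0 with limma-voom and 2 with TMM and no fold rule (1 on CPM), and from caput to cauda 2 without the fold rule and 3 with TMM and no fold rule (1 on CPM). Arm ratios called from caput to cauda numbered 1 with 2 CPM added (0 in the report). The 5p share was 9.29%, 13.7% and 12.5% in caput, corpus and cauda without the 3 most abundant miRNAs, and 3.90%, 4.70% and 3.62% with TMM-scaled totals. Leaving out each library gave 0 to 1 members called from caput to corpus, 0 to 1 from corpus to cauda and 1 to 3 from caput to cauda. It gave 0 to 1 arm ratios called from corpus to cauda and 0 to 1 from caput to cauda. Members called relative to miR-30a-5p ranged over 2 to 4, 1 to 3 and 1 to 4, in the same order of comparisons.

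Directions turned under scaling, for members not called in the report. With TMM, caput to corpus gave -0.30 for miR-30b-5p, -0.56 for miR-30c-5p, -0.081 for miR-30d-5p, -0.36 for miR-30e-3p and -0.052 for miR-30e-5p, and caput to cauda gave -0.21 for miR-30b-5p, -0.51 for miR-30c-2-3p, -0.089 for miR-30c-5p, -0.047 for miR-30d-3p and -0.56 for miR-30e-5p. With median-of-ratios scaling, caput to corpus gave -0.24 for miR-30b-5p, -0.50 for miR-30c-5p, -0.026 for miR-30d-5p and -0.31 for miR-30e-3p, corpus to cauda gave -0.014 for miR-30b-5p, and caput to cauda gave -0.26 for miR-30b-5p, -0.55 for miR-30c-2-3p, -0.14 for miR-30c-5p, -0.092 for miR-30d-3p and -0.61 for miR-30e-5p. Leaving out each library turned the sign in at least 1 fit of miR-30b-5p in each comparison (caput to corpus -0.20 to 0.64, corpus to cauda -0.10 to 0.39, caput to cauda -0.016 to 0.82), of miR-30c-5p (caput to corpus, -0.37 to 0.29), miR-30e-3p (caput to corpus, -0.0081 to 0.47), miR-30c-2-3p (caput to cauda, -0.16 to 0.33), miR-30e-5p (caput to cauda, -0.29 to 0.40), and miR-30d-3p relative to miR-30a-5p (corpus to cauda, -0.057 to 0.20). The cause of these changes was not tested.

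With the replicate number as a block, members called relative to miR-30a-5p numbered 1 from corpus to cauda, without miR-30c-5p (limma adjusted p = 0.054) and miR-30c-2-3p (0.065), and 2 from caput to cauda, without miR-30e-5p (0.054) and miR-30c-2-3p (0.059), and other counts kept within 1.5 times. Of 9 pairs of libraries with the same number, 6 had deviations correlated over 0.1 (-0.21 to 0.41). Pairs of libraries with different numbers ran from -0.45 to 0.18, and those over 0.1 stood at 0.179, 0.141, 0.129 and 0.102. Whether libraries with the same number shared animals was not given in the sources used here, and these correlations do not settle it. The main fits treated the libraries as unpaired. The planned edgeR fit was not run: reads were taken from the CPM steps, but the table held too few low values for them to be accepted as counts for a count model, and limma-voom was run on them. miR-30c-2-3p rested on 23 to 251 reads, the fewest of the members.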
